A study of Mus musculus with 17 samples.

Results

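Matrix metalloproteinases (MMPs) are zinc-dependent proteases that cut collagen, elastin, gelatin and other components of the extracellular matrix, and tissue inhibitors of metalloproteinases (TIMPs) bind and block them. Most MMPs are made as inactive precursors, so a transcript level is not a measure of protease activity. In the lung they are known for their roles in leukocyte passage, in the loss of elastic fibres and in fibrosis. The 10 genes described here were taken by symbol from the table of raw gene counts, where each has 1 row among 45777 genes. They were the gelatinases Mmp2 and Mmp9, the stromelysins Mmp3 and Mmp10, the macrophage elastase Mmp12, the collagenase Mmp13, the membrane-bound Mmp14, the secreted Mmp19, and the inhibitors Timp1 and Timp3.

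RNA was sequenced from the lungs of male wild-type C57BL/6 mice, which were 6 weeks old when a week of acclimatisation began. The left lung received 65 Gy or 75 Gy in a single fraction from an image-guided small-animal irradiator, or no radiation, and tissue was collected after 2 weeks (the inflammation stage) or 6 weeks (the fibrosis stage). By the study's methods the irradiated RNA came from the lesions, so that a focal, high-dose injury is compared with lung of mice that were not irradiated. The 17 libraries analysed here form 6 groups, of which 65 Gy at 6 weeks has 2 libraries and each of the others 3. The labels do not say that each library is a separate mouse, and p-values measure the spread between these libraries. The libraries held between 46764569 and 66797879 counts. The transcripts of lung epithelium and endothelium were abundant in every library (8 markers, summed level 18536.3 to 40095.1 CPM), as the tissue label requires. A pair of libraries stood apart in the genes described here. In the 75 Gy library of 2 weeks numbered 3134, Mmp10, Mmp12, Mmp13, Mmp14, Mmp19 and Timp1 were the highest of their group and Mmp2, Mmp3 and Timp3 the lowest. In the control library of 2 weeks numbered 3126, Mmp3, Mmp10, Mmp12, Mmp19 and Timp1 were the highest of all controls, and Mmp2, Mmp9 and Timp3 were the lowest of the controls of 2 weeks.

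Of the 10 genes, 4 lie in 1 cluster on chromosome 9 and were all upregulated at the fibrosis stage after 75 Gy. In that comparison 8 of the 10 genes were upregulated, beside 7.28% of all genes tested, and Mmp3 was not called in the other comparisons with controls. Mmp10 passed the filter on low counts only through its irradiated libraries. In GRCm38.p6 the 4 genes of the cluster are Mmp13 (chr9:7272514-7283333), Mmp12 (chr9:7344397-7360461), Mmp3 (chr9:7445822-7455975) and Mmp10 (chr9:7502342-7510242). The other genes are Mmp2 (chr8:92827290-92853421), Mmp9 (chr2:164940326-164955850), Mmp14 (chr14:54431598-54442456), Mmp19 (chr10:128790910-128800827), Timp1 (chrX:20870166-20874737) and Timp3 (chr10:86300412-86349505). Stretches upstream of annotated start sites, taken from RefSeq (GRCm38.p6), were available for 7 of the 10 genes, and 4 of these 7 held the binding motif of AP-1, the Fos and Jun transcription factor long known from the promoters of collagenases and stromelysins. They were the 4 genes of chromosome 9. The motif was searched as TGAGTCA, with TGACTCA as its other strand, in the 250 bases before each start, and no member held it more than once. The last 100 bases before the start are shown, all on the plus strand, 5′ to 3′, because they let the position of the motif be compared. The capitals mark the AP-1 motif and, where it was found within 40 bases of the start, the motif TATAAA.
Mmp13, chr9:7272414-7272513: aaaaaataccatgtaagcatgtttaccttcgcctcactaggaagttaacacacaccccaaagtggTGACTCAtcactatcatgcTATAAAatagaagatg
Mmp12, chr9:7347274-7347373: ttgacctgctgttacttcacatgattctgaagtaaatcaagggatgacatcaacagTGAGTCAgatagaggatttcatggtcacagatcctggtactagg
Mmp3, chr9:7445722-7445821: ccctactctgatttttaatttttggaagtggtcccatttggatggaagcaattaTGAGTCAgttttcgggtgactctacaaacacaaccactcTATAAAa
Mmp10, chr9:7502242-7502341: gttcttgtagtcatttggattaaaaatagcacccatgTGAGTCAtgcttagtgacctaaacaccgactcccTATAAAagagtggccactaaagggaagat

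The first base of the motif lay 35 bases before the start of Mmp13, 44 before that of Mmp12, 46 before that of Mmp3 and 63 before that of Mmp10. Mmp12 has 2 annotated starts, and the sequence shown belongs to the second, since the window before the first did not hold these letters. Over the whole reference, 5.16% of 27025 genes (4.46% of 32851 windows) held the AP-1 motif. TATAAA within 40 bases was looked for after the sequences had been seen, was present in Mmp13, Mmp3 and Mmp10, and was held by 2.78% of all genes. Its first base lay 16, 7 and 29 bases before their starts. All distances run from annotated starts, and whether these are the starts used in lung was not measured. Both motifs together were held by 66 genes, or 0.244%. The windows of Mmp14, Timp1 and Timp3 did not hold the AP-1 letters. A match of letters is a description of the sequence, and binding was not measured.

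Irradiation was followed by higher transcript levels of most of these genes and by a lower level of Mmp9. A gene was called when edgeR's quasi-likelihood F test gave an adjusted p (Benjamini-Hochberg over 22052 genes) of at most 0.05 and the log2 fold change was at least 1 in size. At 2 weeks, 4 of the 10 genes were called higher and 1 lower after 65 Gy, where 3.47% of all genes tested were called higher and 0.88% lower. After 75 Gy at 2 weeks, 5 were higher and 1 lower, beside 5.67% and 2.07% of all genes. At 6 weeks, 7 were higher and 1 lower after 65 Gy, beside 4.34% and 0.943%, and 8 were higher and 1 lower after 75 Gy, beside 7.28% and 3.13%. The median log2 fold change of the 10 genes was 0.806 and 0.999 at 2 weeks and 1.55 and 1.78 at 6 weeks, for 65 Gy and 75 Gy, whereas the median of all genes lay between -0.01 and 0.04. All 10 passed the filter on low counts, Mmp10 only through its irradiated libraries. Of the 9 genes without Mmp10, 3 and 4 were called higher at 2 weeks and 6 and 7 at 6 weeks, with medians of 0.764 and 0.786, then 1.10 and 1.38. The genes were chosen with results of these data known, and their counts describe the list. In bulk tissue, a change in the number of cells of a type and a change in RNA per cell cannot be told apart.

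**Figure D1:**
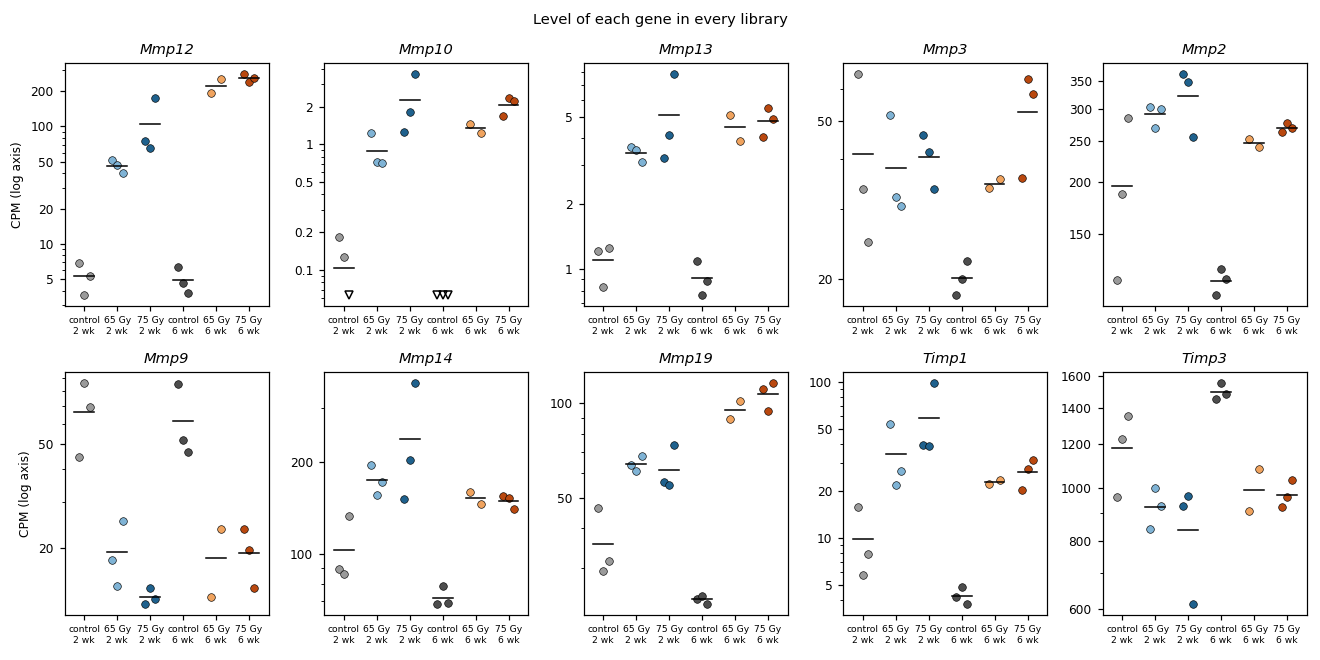
Level of each of the 10 genes in every library, in CPM on a log axis, by group. Points are libraries, lines are group means, and open triangles at the lower edge are libraries with 0 counts. Mmp12 in the irradiated libraries lies between 40.3 and 279 CPM and in the controls between 3.70 and 6.92 CPM, while Mmp9 lies lower in every irradiated library than in every control library.

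Mmp12, which cuts elastin and is made largely by macrophages, had the largest change of the genes with a measurable control level, 44.9-fold after 65 Gy and 52.1-fold after 75 Gy at the fibrosis stage. In control lungs it was at 6.92, 3.70 and 5.36 CPM at 2 weeks and at 6.36, 4.69 and 3.82 CPM at 6 weeks. After 65 Gy it was at 51.9, 47.1 and 40.3 CPM at 2 weeks and at 192 and 254 CPM at 6 weeks. After 75 Gy it was at 75.2, 65.5 and 174 CPM at 2 weeks and at 279, 239 and 258 CPM at 6 weeks. No irradiated library overlapped a control library, and library 3134 was the highest at 2 weeks. The log2 fold changes at 2 weeks were 3.12 ± 0.34 (SE, adjusted p = 5.48e-05) after 65 Gy and 4.30 ± 0.35 (adjusted p = 2.41e-06) after 75 Gy. At 6 weeks they were 5.49 ± 0.38 (adjusted p = 6.25e-07) and 5.70 ± 0.37 (adjusted p = 2.16e-07).

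Mmp10, a stromelysin, was close to undetected in control lungs. The controls of 2 weeks held 9, 6 and 0 counts and those of 6 weeks held 0 counts in each library, which allows up to 3 counts per library, or 0.0515 CPM on average. Irradiated libraries held 40 to 206 counts, from 0.712, 0.729 and 1.23 CPM (65 Gy) and 1.26, 1.82 and 3.62 CPM (75 Gy) at 2 weeks to 1.23 and 1.45 CPM (65 Gy) and 1.67, 2.21 and 2.32 CPM (75 Gy) at 6 weeks. At 2 weeks the log2 fold change was 3.10 ± 0.63 after 65 Gy (adjusted p = 0.00821) and 4.42 ± 0.63 after 75 Gy (adjusted p = 0.000424). These sizes turned on the controls, with 3.82 and 5.14 without library 3126, which held 9 counts, and 2.50 and 3.82 without library 3128, which held 0, and the calls held in each case. At 6 weeks Mmp10 was called after both doses, and it was at least 26.0-fold higher after 65 Gy and at least 40.1-fold higher after 75 Gy than the limit of 3 counts. With Mmp10 set to these bounds, the medians of the 10 genes at 6 weeks were again 1.55 and 1.78.

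Mmp3, the other stromelysin, had a higher level per kilobase than Mmp10 in every group and was not called at 2 weeks. It was at 65.4, 33.7 and 24.8 CPM in the controls of 2 weeks, 51.6, 32.1 and 30.6 CPM after 65 Gy and 46.1, 41.7 and 33.6 CPM after 75 Gy, so that the groups overlapped throughout. The log2 fold changes were -0.12 ± 0.30 and -0.03 ± 0.30, and without library 3126, which had the highest value, they were 0.39 and 0.48. At 6 weeks the controls were at 18.3, 20.0 and 22.2 CPM, below the irradiated libraries at 33.8 and 35.7 CPM after 65 Gy and 35.8, 63.5 and 58.4 CPM after 75 Gy. Mmp3 was upregulated after 75 Gy (1.38 ± 0.31, adjusted p = 0.00303) and was not called after 65 Gy (0.78 ± 0.33, adjusted p = 0.129). The transcripts of Mmp3 and Mmp10 share 140 stretches of 50 identical bases, which is 7.99% of those of Mmp3. In the controls of 6 weeks, Mmp10 held 0 counts although Mmp3 was at 18.3 to 22.2 CPM.

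Mmp13, the main collagenase of rodents for fibrillar collagen, was upregulated in all 4 comparisons. Controls were at 1.22, 0.835 and 1.26 CPM at 2 weeks and 1.09, 0.767 and 0.89 CPM at 6 weeks. After 65 Gy the levels were 3.66, 3.52 and 3.12 CPM, then 5.13 and 3.86 CPM, and after 75 Gy 3.26, 4.14 and 7.86 CPM, then 4.05, 5.48 and 4.91 CPM. The groups did not overlap, and the log2 fold changes were 1.63 ± 0.29 and 2.20 ± 0.29 at 2 weeks and 2.29 ± 0.31 and 2.39 ± 0.29 at 6 weeks, with adjusted p between 4.88e-05 and 0.00227. Of the other 6 MMP genes of the same stretch of chromosome 9, 1 was called in a comparison with controls. Mmp1a, Mmp1b, Mmp7 and Mmp20 had at most 11 counts in any library. Mmp8, the neutrophil collagenase, named here for its place, had log2 fold changes between -0.05 and 0.44 and was not called. Mmp27, which held 22 to 82 counts, was upregulated after 75 Gy at 6 weeks (1.22 ± 0.31, adjusted p = 0.00714) and was at 0.23 to 0.36 in the other comparisons, a difference that was not tested.

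Mmp9, the gelatinase stored in neutrophil granules, was the 1 gene of the 10 that was downregulated. It was at 44.6, 85.8 and 69.3 CPM in the controls of 2 weeks and 85.0, 52.1 and 46.8 CPM in those of 6 weeks. After 65 Gy it was at 17.9, 14.3 and 25.4 CPM, then 13.0 and 23.7 CPM, and after 75 Gy at 12.2, 14.0 and 12.7 CPM, then 23.6, 19.6 and 14.0 CPM. Every irradiated library was below every control library. Mmp9 fell by 1.79 ± 0.31 (log2, adjusted p = 0.00168) after 65 Gy and by 2.36 ± 0.31 (adjusted p = 0.000146) after 75 Gy at 2 weeks, and at 6 weeks by 1.74 ± 0.35 (adjusted p = 0.00506) and 1.68 ± 0.30 (adjusted p = 0.000757). The call at 6 weeks after 65 Gy was lost without library 3138 (-1.36, adjusted p = 0.0893), which leaves 1 library in that group.

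Most markers of neutrophils were lower beside Mmp9 at 2 weeks. Of 9 such markers, 6 were called lower after either dose at 2 weeks, beside 0.88% and 2.07% of all genes. At 6 weeks 2 were lower after 65 Gy and 4 after 75 Gy, beside 0.943% and 3.13%, and none of the 9 was higher. Their summed level was 446 to 719 CPM in the controls of 2 weeks, 174 to 229 CPM after 65 Gy and 139 to 250 CPM after 75 Gy. At 6 weeks it was 481 to 808 CPM in the controls, 150 to 366 CPM after 65 Gy and 252 to 348 CPM after 75 Gy, and none of the 9 was at 0 in any library. The chemokine receptor Cxcr2 fell by 1.53 and 2.12 (log2) at 2 weeks and by 1.40 and 1.13 at 6 weeks, and Csf3r, the receptor of granulocyte colony-stimulating factor, by 1.14, 1.38, 1.40 and 1.47. Lactoferrin, Ltf, an iron-binding protein of neutrophil granules, was not called and was at 7.40 to 26.6 CPM in the controls of 2 weeks, 28.1 to 63.2 CPM after 65 Gy and 13.5 to 42.9 CPM after 75 Gy. Of the other MMPs of neutrophils, Mmp8 was at 0.33 and 0.40 (log2, not called) at 2 weeks and Mmp25 was called higher there (1.05 and 1.23). Among all 14474 genes compared, Cxcr2 was also the one most like Mmp9 over the 17 libraries (Pearson r of log2 CPM = 0.974), before Padi4, an enzyme of neutrophil extracellular traps (r = 0.969). The libraries share the group differences, so these values are descriptions. The part of the neutrophil markers in the lower Mmp9 was not tested.

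**Figure D2:**
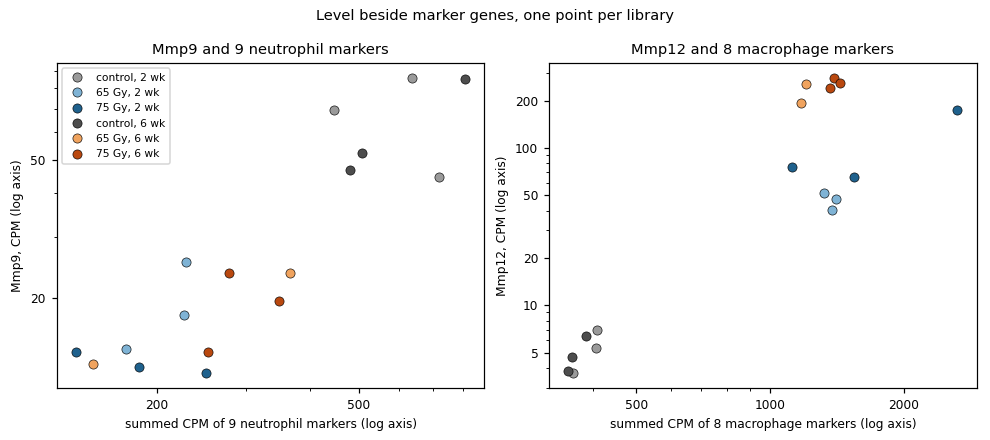
Left, Mmp9 against the summed level of 9 neutrophil markers, and right, Mmp12 against the summed level of 8 macrophage markers, both in CPM on log axes with 1 point per library, coloured by group. Control libraries form the upper right of the left panel (446 to 808 CPM of markers) and the lower left of the right panel (352 to 408 CPM of markers).

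Mmp2, the other gelatinase, is made mainly by mesenchymal cells. It was at 116, 187 and 284 CPM in the controls of 2 weeks, 302, 270 and 300 CPM after 65 Gy and 363, 348 and 256 CPM after 75 Gy. At 6 weeks the controls were at 107, 123 and 117 CPM, the 65 Gy libraries at 254 and 243 CPM and the 75 Gy libraries at 263, 277 and 270 CPM. The groups overlapped at 2 weeks and were wide apart at 6 weeks. Mmp2 was upregulated at 6 weeks after 65 Gy (1.10 ± 0.24, adjusted p = 0.00791) and 75 Gy (1.22 ± 0.22, adjusted p = 0.000788), and was not called at 2 weeks (0.57 ± 0.22, adjusted p = 0.11, and 0.72 ± 0.22, adjusted p = 0.0281). Without the control library 3128 it was called after 75 Gy at 2 weeks (1.09). Without 3138 it was no longer called after 65 Gy at 6 weeks (adjusted p = 0.0571). Of 8 fibroblast markers, none was called higher or lower in 3 of the comparisons. After 75 Gy at 6 weeks 1 was called higher, the collagen-binding proteoglycan Lum (1.14 ± 0.19), beside 7.28% of all genes. The others moved in both directions there and were not called. Pdgfra had a mean of 233 CPM (406 CPM in the controls), Pdgfrb of 125 CPM (194 CPM) and Dcn of 279 CPM (158 CPM). The median log2 fold change of the 8 markers there was 0.121. The summed level of the 8 markers was 1597.7 to 2168.1 CPM in the controls and 1494.0 to 2036.8 CPM in the irradiated libraries.

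Mmp14 anchors proteolysis at the cell surface and activates the precursor of Mmp2. It was at 89.6, 86.3 and 133 CPM in the controls of 2 weeks and 68.8, 78.5 and 69.0 CPM in those of 6 weeks. After 65 Gy it was at 196, 156 and 172 CPM, then 159 and 146 CPM, and after 75 Gy at 151, 203 and 362 CPM, then 155, 153 and 140 CPM. No irradiated library overlapped a control of its time. Mmp14 was upregulated after 75 Gy at 2 weeks (1.21 ± 0.24, adjusted p = 0.00245) and after both doses at 6 weeks (1.08 ± 0.26, adjusted p = 0.0138, and 1.05 ± 0.24, adjusted p = 0.00367), and was at 0.76 ± 0.24 (adjusted p = 0.0527) after 65 Gy at 2 weeks. Without library 3134 the change after 75 Gy at 2 weeks was 0.78, below the fold limit. Without either 65 Gy library of 6 weeks the adjusted p there was 0.0945 or 0.0533.

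Mmp19, which is found in macrophages and epithelium and cuts basement membrane proteins, was called higher at 6 weeks after both doses. It was at 46.3, 29.2 and 31.5 CPM in the controls of 2 weeks, 63.5, 61.0 and 68.2 CPM after 65 Gy and 56.0, 54.8 and 73.8 CPM after 75 Gy. At 6 weeks the controls were at 23.9, 24.3 and 23.0 CPM, the 65 Gy libraries at 88.9 and 102 CPM and the 75 Gy libraries at 111, 94.7 and 116 CPM. Thus the controls were lower and the irradiated libraries higher at 6 weeks than at 2 weeks. The log2 fold changes at 2 weeks, 0.85 ± 0.16 (adjusted p = 0.00283) and 0.79 ± 0.15 (adjusted p = 0.00231), passed the p limit and missed the fold limit, which they passed without library 3126 (1.08 and 1.03). At 6 weeks they were 2.01 ± 0.17 (adjusted p = 4.73e-06) and 2.18 ± 0.16 (adjusted p = 6.67e-07). The span of Mmp19 overlaps that of Tmem198b, which was at 12.6 to 19.7 CPM, and whether the counting used strand is not given in the sources used here.

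Of the inhibitors, Timp1 was called higher in all 4 comparisons and Timp3 in none. Timp1, a soluble inhibitor induced in injured tissue, was at 15.7, 5.78 and 7.84 CPM in the controls of 2 weeks and 4.17, 4.81 and 3.77 CPM in those of 6 weeks. After 65 Gy it was at 54.0, 21.7 and 27.0 CPM, then 22.1 and 23.6 CPM, and after 75 Gy at 39.2, 38.6 and 98.1 CPM, then 20.3, 27.5 and 31.4 CPM. Every irradiated library was above every control, with 3134 the highest. Timp1 rose by 1.81 ± 0.42 (log2, adjusted p = 0.0135) and 2.58 ± 0.43 (adjusted p = 0.000816) at 2 weeks and by 2.42 ± 0.47 (adjusted p = 0.00372) and 2.64 ± 0.44 (adjusted p = 0.000447) at 6 weeks. The call after 65 Gy at 2 weeks was lost without 3127, 3128 or 3129, with adjusted p of 0.0602, 0.0557 and 0.0772. Timp1 lies within the span of Syn1, which was at 1.82 to 4.86 CPM, near the level of Timp1 in the controls of 6 weeks.

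Timp3, the inhibitor that binds to the matrix and also blocks several ADAM and ADAMTS proteases, had the highest mean level per kilobase of the 10 in every group. It was at 961, 1229.3 and 1353 CPM in the controls of 2 weeks and 1455, 1552.2 and 1485.5 CPM in those of 6 weeks. After 65 Gy it was at 841, 1000.1 and 925 CPM, then 905 and 1080 CPM, and after 75 Gy at 926, 967 and 614 CPM, then 922, 961 and 1032.3 CPM. The groups overlapped at 2 weeks and not at 6 weeks. The log2 differences were -0.36 ± 0.16 (adjusted p = 0.167) and -0.50 ± 0.16 (adjusted p = 0.0328) at 2 weeks and -0.59 ± 0.18 (adjusted p = 0.0379) and -0.62 ± 0.16 (adjusted p = 0.00679) at 6 weeks, so 3 of 4 passed the p limit and none the fold limit. Timp3 lies within the span of Syn3, which was at 2.42 to 5.12 CPM.

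**Figure D3:**
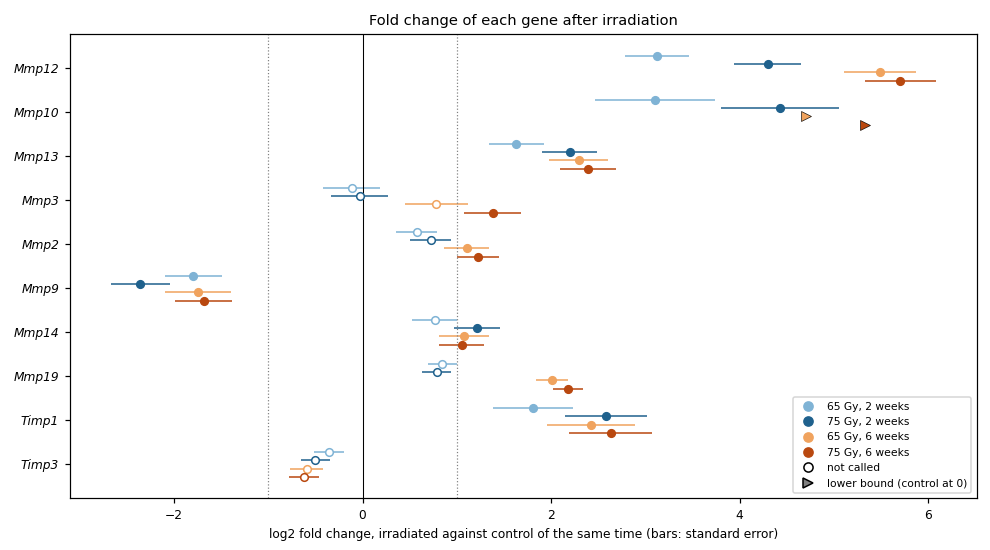
Log2 fold change of each gene in the 4 comparisons of an irradiated group with the controls of the same time. Bars are standard errors, filled points were called, open points were not, dotted lines mark the fold limit of 1, and triangles are lower bounds for Mmp10 at 6 weeks, where the controls had 0 counts. Mmp12 lies between 3.12 and 5.70, and Mmp9 is the only gene left of -1.

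Ratios between inhibitor transcripts, and of protease to inhibitor transcripts, were compared within libraries, where scaling has no part. The log2 ratio of Timp1 to Timp3 was -7.03 ± 0.96 (SD, n = 3) in the controls of 2 weeks and -4.41 ± 1.01 (n = 6) in the irradiated libraries of both doses, and -8.46 ± 0.14 (n = 3) and -5.31 ± 0.22 (n = 5) at 6 weeks. Timp1 thus held 0.00254 to 0.00311 counts per Timp3 count in the controls of 6 weeks and 0.0218 to 0.0305 after irradiation, with no correction for length. The ratio of Mmp12 to Timp1 was higher by 1.49 at 2 weeks and by 3.10 at 6 weeks (log2). Mmp12 thus held 8.20 to 13.8 counts per Timp1 count in the irradiated libraries of 6 weeks and 0.974 to 1.52 in the controls. These counts too were not corrected for length. Timp2 forms the complex through which Mmp14 activates the precursor of Mmp2. Its level was 405 to 639 CPM in the controls and 417 to 498 CPM after irradiation, and it was not called in any comparison, with its largest difference after 75 Gy at 6 weeks (-0.43 ± 0.13, adjusted p = 0.0197). The log2 ratio of Mmp14 to Timp2 was higher by 1.16 at 2 weeks and by 1.46 at 6 weeks. In these 6 exact permutation tests (two-sided, irradiated against control libraries) the groups did not overlap, and p was 0.0238 at 2 weeks and 0.0357 at 6 weeks, the smallest that 84 and 56 arrangements allow (0.0357 after Benjamini-Hochberg adjustment over 6 tests). The pairs were chosen with the behaviour of their genes known.

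**Figure D4:**
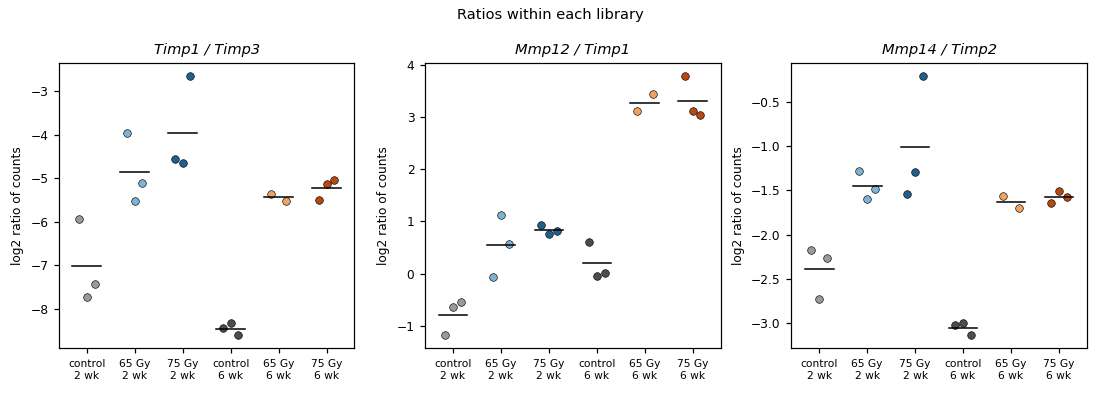
Log2 ratio of the counts of Timp1 to Timp3, Mmp12 to Timp1 and Mmp14 to Timp2 within each library, by group. Points are libraries and lines are group means. In each panel the irradiated libraries lie above the controls of the same time, with 75 Gy library 3134 the highest of all libraries for Timp1 to Timp3 (-2.64) and Mmp14 to Timp2 (-0.20).

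The order of the genes changed with irradiation. On the scale of CPM per kilobase of merged exon length, the controls of 6 weeks ran from Timp3 (184 ± 6.10, SD, n = 3) through Mmp2 (34.3 ± 2.51), Mmp9 (17.3 ± 5.84), Mmp14 (12.1 ± 0.93), Mmp3 (11.2 ± 1.09), Mmp19 (6.72 ± 0.18) and Timp1 (4.79 ± 0.59) to Mmp12 (0.685 ± 0.178), Mmp13 (0.342 ± 0.060) and Mmp10 (0 counts). The ranges of mean ± SD of Mmp9, Mmp14 and Mmp3 overlapped there, although Mmp9 was above Mmp14 and Mmp3 in each library. After 75 Gy at 6 weeks the order was Timp3 (119 ± 6.85), Mmp2 (80.1 ± 2.17), Mmp12 (35.8 ± 2.76), Mmp19 (30.4 ± 3.12), Timp1 (29.7 ± 6.37), Mmp3 (29.2 ± 8.18), Mmp14 (25.1 ± 1.36), Mmp9 (5.39 ± 1.36), Mmp13 (1.80 ± 0.27) and Mmp10 (1.20 ± 0.20). The ranges of mean ± SD of neighbours in this order from Mmp12 to Mmp14 overlapped, although Mmp12 was above Mmp19 in each library. In library 3134, Timp1 was above Timp3 on this scale (111 against 75.4 CPM per kilobase). The lengths join the exons of all annotated transcripts of a gene, 7237 bases for Mmp12, 8144 for Timp3 and 888 for Timp1. Other lengths could change the order of the genes, and none were tried.

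The doses were not told apart. Between 75 Gy and 65 Gy, edgeR called 0 of the 10 genes and 0% of all genes at either time. At an unadjusted p under 0.05 there were 1570 genes at 2 weeks and 1431 at 6 weeks, with 2 and 0 of the 10 genes among them, and DESeq2 called 7 and 14 genes, none of the 10. The 2 genes were Mmp12 and Mmp10 at 2 weeks. Mmp12 was higher after 75 Gy by 1.18 (log2, 95% interval 0.52 to 1.83, adjusted p = 0.693) and by 0.60 without library 3134, and Mmp10 by 1.32 (0.27 to 2.38, adjusted p = 0.693) and by 0.79 without it. At 6 weeks the intervals of all 10 differences contained 0. They reached from -0.51 to 0.93 for Mmp12, from -0.59 to 0.54 for Mmp14 and from -0.76 to 1.18 for Timp1. Dose differences within these bounds remained compatible with the data.

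Of the 10 genes, 1 was called when the effect of 75 Gy at 6 weeks was set against its effect at 2 weeks, beside 0.254% of all genes. This was Mmp19, whose effect was larger at 6 weeks by 1.39 ± 0.22 (log2, adjusted p = 0.0133). For 65 Gy, none of the 10 was called by edgeR, beside 0.0136% of all genes, although 1908 genes and 3 of the 10 (Mmp10, Mmp12 and Mmp19) had an unadjusted p under 0.05. DESeq2 called 75 genes, Mmp10, Mmp12 and Mmp19 among them. For Mmp12 the difference of effects was 2.37 ± 0.47 (adjusted p = 0.12) after 65 Gy. After 75 Gy it was 1.41 ± 0.45 (adjusted p = 0.178), and 1.98 (adjusted p = 0.0149) without library 3134. Between the controls of 6 and 2 weeks, where 0.576% of all genes were called, edgeR called 0 of the 10. DESeq2 called 223 genes, Mmp3 and Mmp10 among them. In edgeR's test, 3412 of the 22052 genes and 7 of the 10 had an unadjusted p under 0.05. Among the 7 were Timp1 (-1.20 ± 0.43, adjusted p = 0.193), Mmp3 (-1.03 ± 0.30, adjusted p = 0.113), Mmp2 (-0.76 ± 0.22, adjusted p = 0.109) and Mmp19 (-0.59 ± 0.16, adjusted p = 0.0746). The means of these genes were higher in the controls of 2 weeks, against which the fold changes of 2 weeks are taken.

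Markers of macrophages rose beside Mmp10, Mmp12, Mmp13, Mmp14, Mmp19 and Timp1. Of 8 markers, 6 were called higher after each dose at 2 weeks, beside 3.47% and 5.67% of all genes. At 6 weeks 7 of these 8 were higher, beside 4.34% and 7.28%. Their summed level was 352 to 408 CPM in the controls, 1119.8 to 2644 CPM in the irradiated libraries of 2 weeks, with library 3134 the highest, and 1176.6 to 1435.9 CPM in those of 6 weeks, and none was at 0. The lipid receptor Trem2 rose by 3.73 and 4.30 (log2) at 2 weeks and by 4.44 and 4.71 at 6 weeks, and Gpnmb, a glycoprotein of lysosome-rich macrophages, by 4.85, 5.08, 4.21 and 4.34. Ms4a7, a membrane protein of macrophages, rose by 2.64, 3.49, 3.53 and 4.27, and Mrc1, the mannose receptor, was called at 6 weeks (1.34 and 1.62). With library 3134 aside, the summed markers of 2 weeks reached 1547.1 CPM and Mmp12 was at 40.3 to 75.2 CPM, against 192 to 279 CPM of Mmp12 at 6 weeks. Of 7 markers of alveolar macrophages, 1 was higher and 2 lower after 65 Gy at 2 weeks, 1 higher and 1 lower after 75 Gy, and 3 higher after each dose at 6 weeks. The scavenger receptor Marco rose at 2 weeks (2.43 and 2.62), and the chitinase-like Chil3 (2.11 and 1.75) and the ribonuclease Ear2 (1.35 and 1.58) at 6 weeks. Ear1, another ribonuclease, fell at 2 weeks (-2.31 and -1.60). The part of the macrophage markers in the levels of the 10 genes was not tested.

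Markers of other tissues that a lung sample can hold were called in few cases, and their medians are given in the order of 65 Gy and 75 Gy at 2 weeks and 65 Gy and 75 Gy at 6 weeks. Of all genes, 3.47%, 5.67%, 4.34% and 7.28% were called higher in that order, and 0.88%, 2.07%, 0.943% and 3.13% lower. The 5 adipocyte markers had median log2 fold changes of -0.49, -2.91, -0.43 and 0.28, with 1 called lower after 75 Gy at 2 weeks. Their summed level there was 6.51 to 18.7 CPM, against 53.7 to 66.5 CPM in the controls. The 4 mesothelial markers had medians of -0.89, -1.03, -2.68 and -0.43, with 3 called lower after 65 Gy at 6 weeks, where their summed level was 12.7 to 19.4 CPM against 21.6 to 78.9 CPM in the controls. The 5 cardiac muscle markers had medians of -0.45, -1.01, 0.11 and 1.18, with 1 called higher after 75 Gy at 6 weeks. Of the skeletal muscle markers 4 of 5 were tested, with medians of 0.21, -0.67, -0.13 and 0.76 and with 1 called higher and 1 lower after 75 Gy at 2 weeks. The 5 erythroid markers had medians of -0.10, 0.10, -0.47 and -0.94, with 2 called lower after 75 Gy at 6 weeks, and the 8 lung epithelial and endothelial markers had medians of -0.32, -0.37, -0.38 and -0.52, with 1 called lower in the same comparison. The part of these markers in the levels of the 10 genes was not tested.

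The genes most like each of the others over the 17 libraries were given by Pearson r of log2 CPM. Mmp12 was followed most closely by Atp6v0d2, a subunit of the proton pump of osteoclasts and macrophages (r = 0.988), and Spp1, osteopontin (r = 0.984). Mmp13 went with Mpeg1, a pore protein of macrophages, and the lysosomal protease Ctss (both r = 0.986), and Mmp10 with Ms4a7 (r = 0.975) and the lectin receptor Clec4n (r = 0.971). Mmp14 went with the receptors Ptafr and Gpr35 (both r = 0.972), Mmp19 with the complement factor Cfi (r = 0.979) and Rgs1 (r = 0.972), and Timp1 with Litaf (r = 0.979) and the protease Ctsc (r = 0.976). Mmp2 went with Cpz (r = 0.957) and Fstl1 (r = 0.951), both secreted by mesenchymal cells, Timp3 with Plcb4 and Kcnk2 (both r = 0.97), and Mmp3 with Psmg2 (r = 0.942) and Gm5499 (r = 0.920). Within the groups, over deviations from the group means, Mmp2 went with the basement membrane genes Nid1 (r = 0.967) and Sparc (r = 0.965), Mmp9 with Cd101 (r = 0.903) and Mmp12 with Msrb1 (r = 0.948). Among the 10 genes, the levels of Mmp12 and Mmp19 (r = 0.955), Mmp12 and Mmp13 (r = 0.950) and Mmp10 and Mmp13 (r = 0.943) were most alike, and those of Timp1 and Timp3 most opposed (r = -0.936). Over deviations from the group means, r of these pairs was 0.747, 0.72, 0.293 and -0.75. The values over the 17 libraries include the group differences that the genes share, so they are descriptions.

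Other genes of matrix breakdown were read from lists. Of all genes tested, 3.47% and 5.67% were called higher at 2 weeks after 65 Gy and 75 Gy, and 4.34% and 7.28% at 6 weeks. Called lower were 0.88% and 2.07%, then 0.943% and 3.13%. The counts of each list below are read beside these shares. Of the 15 further MMP genes, 10 were tested, and in the order of 65 Gy and 75 Gy at 2 weeks and 65 Gy and 75 Gy at 6 weeks, 1, 1, 0 and 1 were called higher and 1 lower each time. The lower one was Mmp28, an epithelial and macrophage protease, which fell by 1.11, 1.01, 1.10 and 1.74 (log2). Mmp25, the membrane-bound MMP of neutrophils, rose at 2 weeks (1.05 ± 0.30, adjusted p = 0.0351, and 1.23 ± 0.30, adjusted p = 0.00875) in the comparisons where 6 of 9 neutrophil markers were lower. Of 5 further inhibitors, 0, 2, 1 and 3 were called higher and 0, 0, 1 and 1 lower. Reck, a membrane-anchored inhibitor of MMPs, fell at 6 weeks (-1.05 ± 0.19, adjusted p = 0.00299, and -1.16 ± 0.17, adjusted p = 0.000181). The protease trap A2m rose after 75 Gy at 2 weeks (2.12) and after both doses at 6 weeks (2.67 and 2.93), Tfpi2 after 75 Gy (1.53 and 1.39) and Timp4 after 75 Gy at 6 weeks (1.06).

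The plasminogen system yields plasmin, which cuts MMP precursors. Its urokinase gene Plau rose in all 4 comparisons (1.82, 2.18, 1.43 and 1.41), and the inhibitor Serpinb2 rose at 2 weeks (3.34 and 4.46). Serpinb2 was at 0 to 0.101 CPM in the controls of 2 weeks, about the level of 3 counts, so the size of its rise is uncertain. It was at 0.16 to 0.839 CPM after 65 Gy and 0.488 to 1.76 CPM after 75 Gy at 2 weeks. The controls of 6 weeks were at 0.332 to 0.503 CPM. Of 6 genes that activate, dock or bind MMPs and TIMPs, only Cd63, a surface partner of Timp1, was called, after 75 Gy at 2 weeks (1.30) and both doses at 6 weeks (1.33 and 1.54). Of 17 ADAM and ADAMTS genes, 1 was called higher each time, a count near the 3.47%, 5.67%, 4.34% and 7.28% of all genes. It was the aggrecanase Adamts4 (1.57, 1.99, 3.09 and 3.14). Adamts1 was lower at 2 weeks (-1.02 and -1.30), beside 0.88% and 2.07% of all genes.

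Cathepsins, the proteases of lysosomes, were called higher in 5, 5, 5 and 6 of 6 genes. Ctsk, which cuts collagen and elastin, rose by 2.55, 2.66, 2.86 and 2.94, Ctsd by 2.08, 2.32, 2.27 and 2.42, Ctss by 2.27, 3.18, 2.77 and 3.34 and Ctsb by 1.50, 1.79, 1.31 and 1.57. Of 9 matrix and substrate genes, 2, 2, 3 and 3 were called higher and none lower. Spp1 rose by 2.73, 3.28, 4.04 and 4.56 and fibronectin, Fn1, by 1.38, 1.48, 1.29 and 1.31. Elastin, Eln, the substrate of Mmp12, was called at 6 weeks (1.84 ± 0.28, adjusted p = 0.000655, and 1.84 ± 0.26, adjusted p = 0.000129) and stood at 0.20 and 0.51 at 2 weeks. Its level at 6 weeks was 99.8 ± 13.8 CPM (SD, n = 3) in the controls, 357 ± 21.6 CPM (n = 2) after 65 Gy and 356 ± 51.4 CPM (n = 3) after 75 Gy, and all 3 means were higher at 2 weeks (506 ± 180, 583 ± 147 and 718 ± 195 CPM, n = 3 each). Between the controls, Eln was lower at 6 weeks by edgeR's test (-2.34 ± 0.26, adjusted p = 0.000583), and the effect of either dose was not called as differing between the stages (adjusted p = 0.223 and 0.128). Of 9 AP-1 subunits, 1, 1, 1 and 2 were called higher, beside 3.47%, 5.67%, 4.34% and 7.28% of all genes, and none lower. They were Fosl1 at 2 weeks (2.77 ± 0.75, adjusted p = 0.0279, and 2.66 ± 0.75, adjusted p = 0.019), Junb at 6 weeks (1.29 and 1.14) and Atf3 after 75 Gy at 6 weeks (1.30). The median log2 fold changes of the 9 were 0.253, 0.339, 0.876 and 0.834. Fosl1 was at 0.0214 to 0.122 CPM in the controls of 2 weeks, about the level of 3 counts, so the size of its rise is uncertain. Jun was not called. Its level at 2 weeks was 294 to 304 CPM in the controls, 169 to 188 CPM after 65 Gy and 139 to 175 CPM after 75 Gy. At 6 weeks it was 294 to 337, 201 to 298 and 160 to 209 CPM. All 4 genes with the AP-1 letters shown above were called higher after 75 Gy at 6 weeks, as were Mmp14 and Timp1, whose windows did not hold them. Mmp2 and Mmp19, also called higher there, had no window, and only the exact letters were searched. Mmp3, which holds the letters, was not called in the other comparisons with controls. The part of AP-1 in the levels of the 10 genes was not tested.

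**Figure D5:**
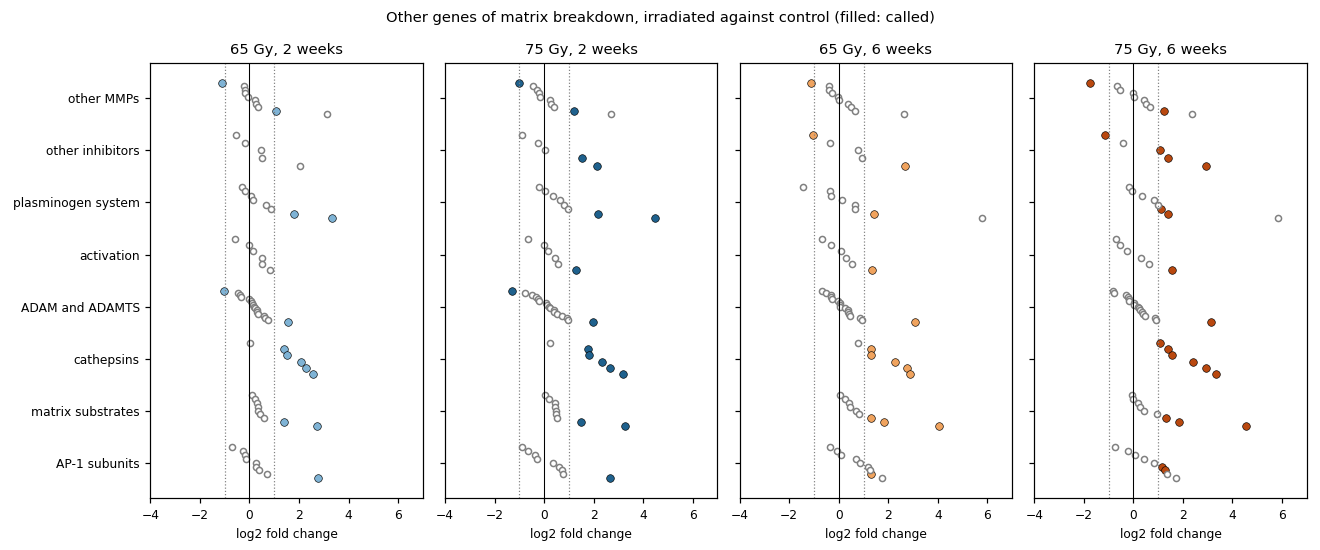
Log2 fold change of the other genes of matrix breakdown in the 4 comparisons of an irradiated group with controls, with 1 point per gene in each of 8 lists. Filled points were called, open points were not, and dotted lines mark the fold limit of 1. Cathepsins lie to the right in all panels, with 5, 5, 5 and 6 of 6 called, while ADAM and ADAMTS genes centre near 0.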

How the data were processed

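Stranded mRNA libraries of lung RNA were sequenced in pairs. The authors used Trimmomatic for trimming, HISAT2 for alignment to GRCm38.p6 and StringTie for assembly, and deposited raw counts per gene as whole numbers. How StringTie's output became read counts, and whether strand was used, is not given in the sources used here. Groups come from the sample titles. All 17 libraries were fitted together in edgeR 4.0.16 (R 4.3.3) with 1 coefficient per group, after filterByExpr (minimum count 10, minimum total 15) and TMM scaling, and 22052 of 45777 genes were tested by the quasi-likelihood F test. CPM uses TMM-scaled library sizes, log2 CPM has a prior count of 2, and lengths are merged exons of GENCODE. Standard errors are the log2 fold change divided by the root of F. Ratios of counts (plus 0.5) were compared by exact permutation tests. The fit was tested on simulated data for 75 Gy against control at 2 weeks. It recovered 159 of 200 genes changed 4-fold, with 1 false call, so changes of this size can go uncalled. The alternatives tried, DESeq2 1.42.0 among them, are given in the closing section. Depth gives more than 10 counts at 1 CPM, and floors cover counting error only. All 10 genes are named. Of other lists, genes called at least once are named, at most 4 with the smallest p, and for likeness the 2 genes of highest r. A few items that this rule would name are not reported here. The 10 genes and all lists were chosen with earlier results of these data known.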

Additional observations from a re-analysis of the deposited data

Results flagged for a closer look

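Mmp19 responded more strongly to 75 Gy at 6 weeks than at 2 weeks, by 1.39 ± 0.22 on the log2 scale (95% interval 0.93 to 1.86, edgeR's quasi-likelihood F test of the difference between the effects, adjusted p = 0.0133). It was the 1 of the 10 genes called for this difference by this test, beside 0.254% of all genes. DESeq2 called 4 of the 10, and 306 genes in all. The mean of Mmp19 was 35.7 CPM in the controls of 2 weeks and 23.7 CPM in those of 6 weeks, and 61.5 and 107 CPM after 75 Gy. The controls of 6 weeks were at -0.59 ± 0.16 (log2, adjusted p = 0.0746) against those of 2 weeks, which was not called. Without the control library 3126, the highest of its group, the difference was 1.16 (adjusted p = 0.0129). Over all libraries left out in turn it lay between 1.16 and 1.54, with adjusted p between 0.00729 and 0.0423. With only the groups compared it was 1.39, at the edge of the limit (quasi-likelihood F test, adjusted p = 0.0497). After 65 Gy the same difference was 1.16 ± 0.23 (adjusted p = 0.12).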

How the results depend on the processing

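RLE or upper-quartile factors, no filter except 1 count and no fold-change limit were tried beside DESeq2, edgeR's exact test (likelihood ratio test for differences of effects), fits of only the groups compared and leaving out each library. In 65 Gy against control at 6 weeks, 8 of the 10 genes were called, and 5 to 8 with 1 library left out, with 5 without 3138. The counts were 4 to 6 and 5 to 7 at 2 weeks and 9 after 75 Gy at 6 weeks. For the controls of 6 against 2 weeks, DESeq2 and the exact test called 2 and leaving out 1 library 0 to 2 (1 without 3126, 2 without 3128). For the effect of 65 Gy at 6 against 2 weeks, DESeq2 and the likelihood ratio test called 3 and only the groups compared 1. For that of 75 Gy they called 4 and 2, and leaving out 1 library 1 to 2 (2 without 3134). Mmp3 at 2 weeks turned from -0.12 to 0.39 without 3126 and 0.02 without 3131 (65 Gy, range -0.40 to 0.39), and from -0.03 to 0.48 without 3126 and 0.09 without 3134 (75 Gy, range -0.29 to 0.48). Mmp14 after 75 Gy at 2 weeks had adjusted p = 0.067 with only the groups compared.

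Log2 ratios for 65 Gy and 75 Gy alone cannot pass 0.05 (exact permutation tests, smallest p 0.1, or 0.2 for 65 Gy at 6 weeks). For Timp1 to Timp3 they were 2.17 and 3.08 at 2 weeks and 3.03 and 3.24 at 6 weeks, for Mmp12 to Timp1 1.34 and 1.63, then 3.08 and 3.12, and for Mmp14 to Timp2 0.942 and 1.38, then 1.43 and 1.48. With 1 library left out, in designs whose smallest p often exceeds 0.05, the ranges were 2.27 to 3.17 and 3.08 to 3.22 (Timp1 to Timp3), 1.29 to 1.64 and 2.98 to 3.31 (Mmp12 to Timp1), and 0.956 to 1.27 and 1.42 to 1.49 (Mmp14 to Timp2). No paired analysis was possible because the library numbers are unique and link no libraries across groups. A pseudocount of 2 kept each ratio's direction and p. Where 1 library is left in a group, it is assumed to vary like the others.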
